A study of Homo sapiens with 36 samples.

Results

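The comparison described here is that of A549 cells exposed to IL-1β for 21 days with untreated control cells collected on the same day. Its members are the 6 libraries whose labels give day 21 as the time point, 3 exposed and 3 control, of 36 libraries in the series. A549 is an established human lung adenocarcinoma line. The cells of both groups were grown in RPMI medium with serum and split every 3 to 4 days, and IL-1β at 1 ng/ml was the agent that differed between them, as far as the labels say. The other libraries of the series are exposed and control cells of days 6 and 15 of exposure and of later times after IL-1β was withdrawn. They enter below through the shared estimate of the spread and, for days 6 and 15, as a comparison. The labels call the replicates biological, but do not say whether each came from a separately exposed culture. The p-values therefore measure the spread between samples, estimated over all 36 libraries and not over the 6 of day 21 alone. The model is a single cell line with no immune or stromal cells added. RNA was measured by sequencing of poly(A)-selected, strand-marked libraries, and the values are reads counted on each gene.

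IL-1β binds IL1R1, and its receptor complex signals through IRAK kinases to the transcription factor NF-κB and, by MAP kinases, to AP-1. NF-κB rests in the cytoplasm bound by inhibitors such as IκBα, the product of NFKBIA, and among the genes it switches on are its own inhibitors and many chemokines and cytokines. Epithelial-to-mesenchymal transition (EMT) is a change of cell state in which junction proteins such as E-cadherin (CDH1) and keratins fall and mesenchymal proteins, matrix and proteases rise. The transcription factors SLUG (SNAI2), SNAIL (SNAI1), ZEB1 and ZEB2 repress CDH1 through E-boxes in EMT. The comparison asks which genes differ under chronic exposure to the cytokine, and day 21 is the last day of exposure among these libraries.

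The promoters of 4 genes that rose at day 21 are shown because a match to a short form of the NF-κB motif stands in each, and because these genes are the chemokines and the inhibitor that the results below turn on. Each line holds 300 bases, 250 before and 50 after the transcription start, 5′ to 3′ in the direction of the gene, from RefSeq on build GRCh38.p14. Capitals mark letters that match GGNNTTTCC on either strand. The windows are chr4:73740319-73740618 on the plus strand for CXCL8, chr4:73869143-73869442 on the plus strand for CXCL1, chr2:227813592-227813891 on the plus strand for CCL20 and chr14:35404700-35404999 on the minus strand for NFKBIA.
CXCL8: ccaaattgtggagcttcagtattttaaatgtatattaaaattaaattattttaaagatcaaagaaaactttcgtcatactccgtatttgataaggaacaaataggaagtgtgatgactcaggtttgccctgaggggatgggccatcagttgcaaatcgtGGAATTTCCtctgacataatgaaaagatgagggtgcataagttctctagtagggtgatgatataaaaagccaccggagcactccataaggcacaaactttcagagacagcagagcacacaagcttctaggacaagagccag
CXCL1: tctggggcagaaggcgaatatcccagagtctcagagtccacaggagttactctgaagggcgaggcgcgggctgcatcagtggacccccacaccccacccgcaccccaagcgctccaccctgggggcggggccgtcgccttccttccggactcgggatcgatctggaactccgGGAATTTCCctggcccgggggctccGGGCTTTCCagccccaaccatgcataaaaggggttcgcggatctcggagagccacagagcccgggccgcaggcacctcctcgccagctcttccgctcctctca
CCL20: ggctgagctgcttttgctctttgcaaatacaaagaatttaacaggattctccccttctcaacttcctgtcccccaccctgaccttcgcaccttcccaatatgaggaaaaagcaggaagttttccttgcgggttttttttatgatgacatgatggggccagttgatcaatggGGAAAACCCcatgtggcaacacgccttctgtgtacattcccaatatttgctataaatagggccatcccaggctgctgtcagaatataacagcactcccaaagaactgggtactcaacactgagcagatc
NFKBIA: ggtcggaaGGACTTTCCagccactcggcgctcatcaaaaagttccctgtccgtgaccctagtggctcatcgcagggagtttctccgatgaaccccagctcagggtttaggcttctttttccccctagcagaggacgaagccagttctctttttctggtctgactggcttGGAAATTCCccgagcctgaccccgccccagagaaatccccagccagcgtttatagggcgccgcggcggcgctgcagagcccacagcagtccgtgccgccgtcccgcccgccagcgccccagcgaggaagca
The match in CXCL8 begins 91 bases before the start, those in CXCL1 78 and 53 bases before it, that in CCL20 79 bases before it, and those in NFKBIA 242 and 81 bases before it. The same letters were searched on both strands in 1 promoter of each gene, the first listed where a gene had several. They were found in 6.26% of the 27305 promoters of the table and in 6.45% of the 11642 promoters that could be matched by symbol to a gene tested. Of the 300 matched promoters of genes that rose at day 21, 13% held a match, and of the 252 matched promoters of genes that fell, 4.76%. An AP-1 motif, TGANTCA, was found in 7.76% of all promoters of the table. Its share was 5% in promoters of genes tested, 13% in those that rose and 6.75% in those that fell. The E-box CAGGTG was found in 20.6% of all promoters of the table, and in 18.5% of promoters of genes tested, 20.7% of those that rose and 25.8% of those that fell. CDH1, KRT18 and SNAI2 had no promoter in the table, so all these shares leave them out. Matches of different motifs may overlap, and these shares are a description of letters, not of bound sites. All 5 CXC chemokine genes that rose, CXCL1, CXCL2, CXCL3, CXCL5 and CXCL8, held the NF-κB letters, as did CCL20. Of genes that rose and had a promoter in the table, 2 of 5 cytokine genes (IL6 and IL32) and 4 of 9 genes of NF-κB subunits and inhibitors (TNFAIP3, NFKBIA, NFKBIZ and TNIP3) held them, and the others did not. The letters also stood in the promoters of NFKB1, REL and BCL3, which did not pass the thresholds below.

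After 21 days with IL-1β, the genes that rose against untreated cells included the chemokines CXCL8, CXCL1 and CCL20, the cytokine IL6 and the NF-κB inhibitors TNFAIP3 and NFKBIA. Those that fell included CDH1 and DSP of epithelial junctions, the keratins KRT8 and KRT18, the fibrinogen genes FGA, FGB and FGG, the transcription factor HNF4A and the aldo-keto reductase AKR1B10. Of 19180 genes tested, 817 (4.26%) passed both thresholds, an adjusted p under 0.05 by edgeR's quasi-likelihood F-test with Benjamini-Hochberg adjustment and a fold change over 2. Rose and fell are used only of genes that passed both. At the adjusted p alone there were 1228 (6.4%), and at an unadjusted p under 0.05, 2632 (13.7%). There were 421 genes that rose (2.19%) and 396 that fell (2.06%). Of those that rose, 373 were protein coding, 157 changed over 4-fold and 54 over 8-fold. Of those that fell, 321 were protein coding, 129 changed over 4-fold and 56 over 8-fold. All 817, chosen by a test on these same libraries, changed in the same direction in the 3 pairs with the same replicate number. That follows largely from the choice and is no support for it. For 419 of the 421 and all 396, the values of the 2 groups did not overlap, while over all genes tested 13.8% lay above and 15.2% below without overlap. The genes that rose took 0.859% to 0.933% of the counts in control libraries and 2.46% to 2.80% in exposed libraries. Those that fell took 2.64% to 2.92% in control and 0.723% to 1.03% in exposed libraries. The median log2 fold change over all genes tested was -0.0077.

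**Figure D1:**
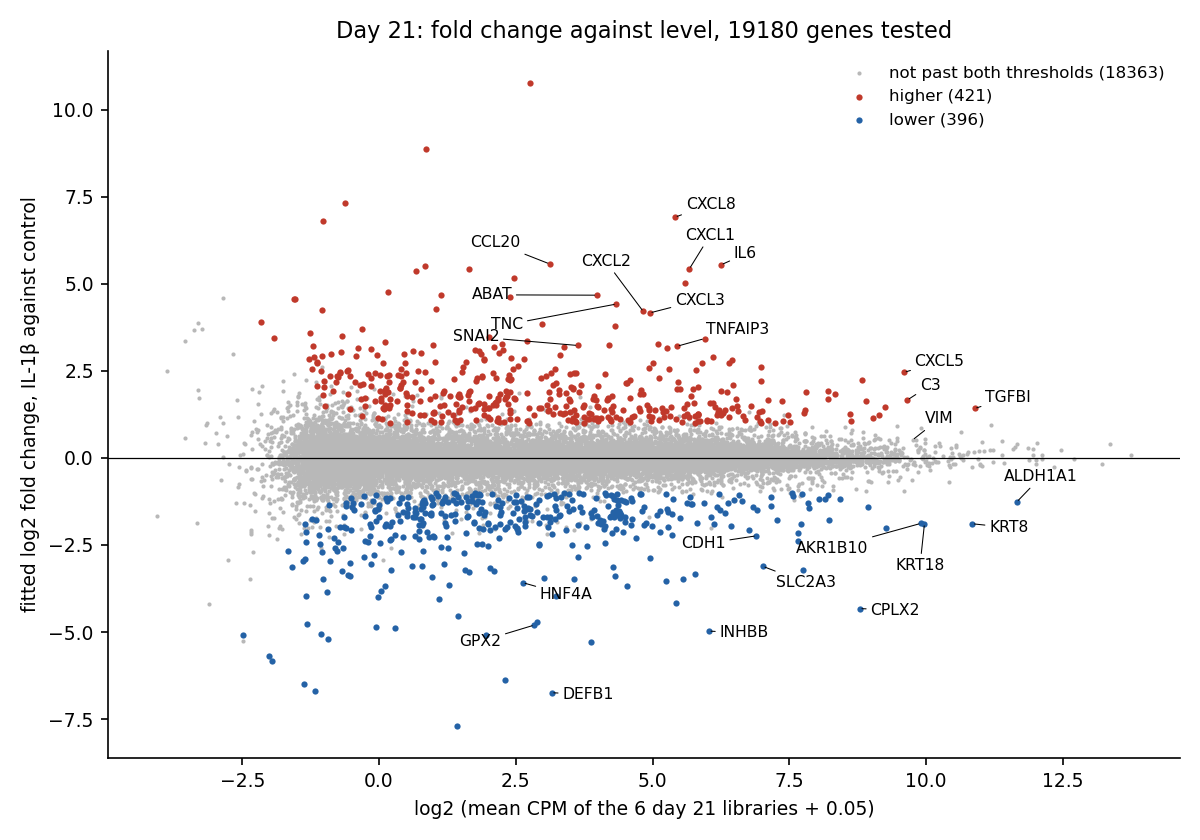
Fitted log2 fold change of IL-1β against control at day 21 (vertical axis) against log2 of the mean CPM of the 6 libraries plus 0.05 (horizontal axis), 1 point per gene tested. Red points are the 421 genes that rose, blue points the 396 that fell and grey points the rest, and named points include CXCL8 at 6.91, IL6 at 5.55, CPLX2 at -4.32 and DEFB1 at -6.74.

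The 6 libraries held 13693419 to 23570026 reads on genes, and values are given as CPM, counts per 1000000 reads after TMM scaling of the library sizes. The first principal component of log2 CPM took 55.4% of the variance and set the 3 control libraries apart from the 3 exposed ones, and the second took 20.6% and spread the exposed libraries. Mitochondrial genes took 5.61% to 7.75% of the counts in 5 libraries and 11.8% in exposed replicate 2, and the median log2 fold change of the 33 mitochondrial genes tested was 0.25. Without that library, 642 genes passed both thresholds, and leaving out any of the 6 in turn gave 591 to 755. Without all libraries of the series that had a mitochondrial share over 10%, there were 1008, of which 766 were among the 817.

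Markers of the line and of other cell types were read first, because in bulk RNA fewer cells of a type and less RNA per cell cannot be told apart. All 12 markers of A549 and epithelial lines were above the floor of 3 counts. Their summed CPM was 14617 to 15953 in the control libraries and 6322 to 7702 in the exposed ones, and 8 of the 11 tested fell. Of 14 leukocyte markers, 7 were at the floor in all 6 libraries, PTPRC (the pan-leukocyte marker CD45), CD3D, CD3E and CD4 of T cells and MS4A1 of B cells among them. The others, CD8A, CD14, CD68, CSF1R, ITGAM, LYZ and NKG7, were above it. The summed level of that list was 12.5 to 17.1 CPM in control and 8.23 to 16.5 CPM in exposed libraries. Of 10 fibroblast markers, COL1A2, COL3A1, LUM and THY1 were at the floor, and COL1A1, DCN, PDGFRA, PDGFRB, FAP and ACTA2 were above it. Of the 2 tested, COL1A1 rose and ACTA2 did not pass the thresholds. The sum was 9.52 to 9.97 CPM in control and 11.02 to 14.9 CPM in exposed libraries. Of 6 matched endothelial markers, 5 were at the floor, VWF, CDH5 and KDR among them, and CLDN5 was above it. The endothelial sum was 0.279 to 0.603 CPM in control and 0.380 to 0.524 CPM in exposed libraries. Of 10 alveolar type II markers, SFTPA1, SFTPA2, SFTPD, SLC34A2 and NKX2-1 were at the floor, and SFTPB, SFTPC, NAPSA, ABCA3 and LAMP3 were above it. Their sum was 18.7 to 24.1 CPM in control and 10.3 to 16.5 CPM in exposed libraries.

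Of 18 genes of IL-1 signalling tested, IL1A, IL1B and IRAK2 rose and IL1R2 fell (22.2%, against 4.26% of all genes tested), and the median of the list was 0.16. A gene near the floor in control could pass the count filter only by its counts in IL-1β libraries, and the reverse. Shares called here and in the lists below are therefore partly set by the filter. IL1B, the agonist that was also added to the medium, had 0, 2 and 2 counts in the control libraries and 60, 36 and 104 in the exposed ones, a scaled ratio of 50.9 (95% exact interval 19.6 to 189, for counting error only). IL1A, the other IL-1 agonist, had 2, 0 and 2 counts against 62, 33 and 80, a ratio of 44.5 (17.1 to 165). IRAK2, a kinase of the receptor complex, measured 21.5, 21.8 and 23.6 CPM in control and 89.3, 76.5 and 107.7 CPM in exposed libraries. Its groups lay far apart, with a log2 fold change of 2.03 ± 0.24 (SE; edgeR adjusted p = 1.12e-06). IL1R2, a decoy receptor that binds IL-1 without signalling, lay at 0.362 to 0.558 CPM in control and at 0 to 0.164 CPM in exposed libraries. That call was lost when any of 4 of the 6 libraries was left out (log2 fold change -2.16 and adjusted p = 0.155 without exposed replicate 1). IL1R1, the signalling receptor, measured 35.6 to 40.5 CPM in control and 27.5 to 28.9 CPM in exposed cells and did not pass the thresholds (log2 fold change -0.43 ± 0.19, adjusted p = 0.277).

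Of 20 tested genes of NF-κB subunits and feedback inhibitors, 9 rose (45% called, against 4.26% of all genes tested). These were ZC3H12A, TNFAIP3, TNIP3, TRAF1, NFKBIA, NFKBIZ, TNIP1, NFKBID and NFKB2, and the other 11 had log2 fold changes of 0.0043 to 1.13. The list median was 1.07, and 8 genes of the list rose whichever of the day 21 libraries was left out. TNFAIP3, the ubiquitin-editing enzyme A20 that shuts off NF-κB signalling, measured 7.92, 9.47 and 8.24 CPM in control and 71.0, 71.0 and 94.4 CPM in exposed libraries. The exposed libraries were all far above the control ones, and the log2 fold change was 3.21 ± 0.22 (adjusted p = 4.73e-11). NFKBIA, the gene of IκBα whose promoter is shown above, measured 36.4, 37.2 and 31.3 CPM against 117, 131 and 140.2 CPM. Its log2 fold change was 1.89 ± 0.20 (adjusted p = 1.14e-07). ZC3H12A, the RNase Regnase-1 that degrades transcripts of inflammatory genes, measured 9.23, 10.3 and 12.5 CPM against 97.1, 91.8 and 151 CPM. Exposed replicate 3 was the highest, all 3 exposed libraries lay above control, and the log2 fold change was 3.41 ± 0.47 (adjusted p = 7.74e-06). TNIP1, a partner of A20, had log2 fold change 1.64 ± 0.18. NFKB2, the precursor of the p52 subunit, rose by 1.20 ± 0.28 on the log2 scale.

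Of 13 AP-1 and related factors, FOSL1, CREB5, JUN and MAFF rose (30.8% called, against 4.26% of all genes tested), and the list median was 0.11. FOSL1, the AP-1 subunit FRA1, measured 38.4, 45.2 and 23.3 CPM in control and 207, 328 and 121 CPM in exposed libraries. In both groups replicate 2 was the highest and replicate 3 the lowest, and the groups did not overlap (log2 fold change 2.62 ± 0.55, adjusted p = 0.00213). JUN, the partner of FOS proteins in AP-1, measured 25.2, 23.3 and 16.1 CPM against 90.9, 98.8 and 65.2 CPM, a log2 fold change of 1.98 ± 0.32 (adjusted p = 9.27e-05). Of 14 MAP kinase phosphatases and Sprouty proteins, which damp MAP kinase signals, DUSP8 and SPRY4 rose (14.3% called, against 4.26% of all genes tested). These were calls near the threshold: without control replicate 3 their adjusted p was 0.115 and 0.184 (log2 fold change 1.62 and 0.91), and each call was lost in 5 of the 6 fits without 1 library. DUSP6, a phosphatase of ERK, measured 4.10 to 4.78 CPM in control and 4.88 to 5.31 CPM in exposed libraries and did not pass the thresholds (adjusted p = 0.932).

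The neutrophil-attracting CXC chemokines carried some of the largest changes of the comparison. Of 7 tested CXC genes, CXCL1, CXCL2, CXCL3, CXCL5 and CXCL8 rose and CXCL16 fell (85.7% called, against 4.26% of all genes tested), with a list median of 4.16. CXCL8 (interleukin 8) measured 0.570, 0.845 and 0.677 CPM in control and 88.7, 69.2 and 95.7 CPM in exposed libraries. The log2 fold change was 6.91 ± 0.45 (adjusted p = 2.33e-11), the largest among the genes of at least 10 CPM that were not at the floor in either group. CXCL1 measured 2.22, 1.87 and 2.79 CPM against 84.5, 85.2 and 129 CPM (log2 fold change 5.43 ± 0.32, adjusted p = 2.13e-12). CXCL1, CXCL2 and CXCL3 are near copies of each other, so reads may be split between them. CXCL2 rose by 4.20 ± 0.25 and CXCL3 by 4.16 ± 0.32 on the log2 scale, from 2.79 to 3.50 CPM in the control libraries to 46.3 to 67.0 CPM in the exposed ones. CXCL5 differed from the others in its start: it measured 250.1, 226 and 242 CPM in untreated cells and 1487, 1060.2 and 1393 CPM after exposure, a log2 fold change of 2.46 ± 0.24 (adjusted p = 3.74e-08). CXCL16, a membrane-bound scavenger receptor and chemokine, measured 10.8, 11.6 and 14.3 CPM in control and 3.64, 3.29 and 4.23 CPM in exposed libraries. It fell by 1.71 ± 0.33 on the log2 scale (adjusted p = 0.000865).

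Of 6 CC and CX3C chemokine genes tested, CCL20 and CCL2 rose (33.3% called, against 4.26% of all genes tested). CCL20, the ligand of CCR6 on Th17 and dendritic cells, measured 0.570, 0.362 and 0.159 CPM in control and 16.3, 14.4 and 19.99 CPM in exposed libraries, with a log2 fold change of 5.57 ± 0.45 (adjusted p = 1.29e-09). CCL2, which attracts monocytes, measured 2.56, 2.96 and 2.55 CPM against 29.4, 41.2 and 39.9 CPM (log2 fold change 3.77 ± 0.41).

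**Figure D2:**
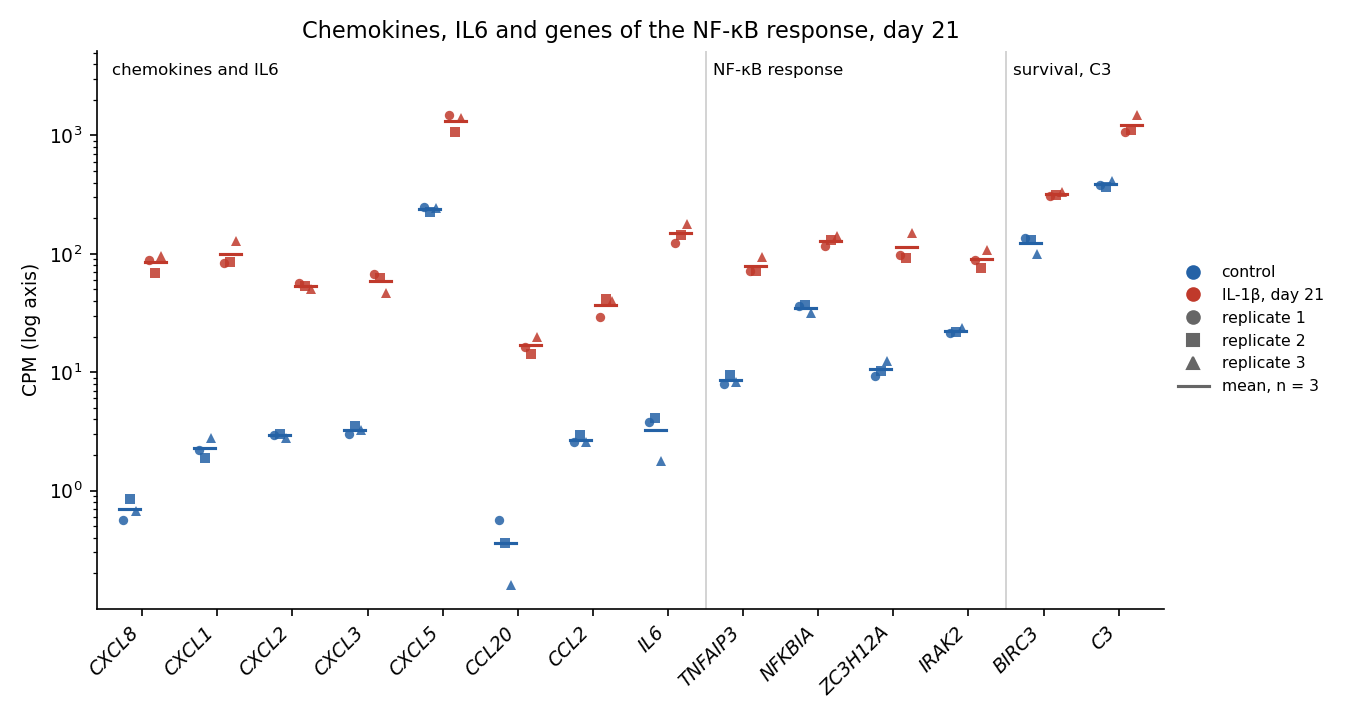
CPM (log axis) of chemokine genes, IL6 and genes of the NF-κB response in each of the 6 day 21 libraries; blue is control, red IL-1β, the symbols mark replicates 1 to 3 and the lines are means (n = 3). For every gene drawn the 3 exposed libraries lie above the 3 control libraries, as for CXCL8 (0.570 to 0.845 CPM against 69.2 to 95.7 CPM) and C3 (366 to 414 CPM against 1080.1 to 1495 CPM).

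Cytokines and colony stimulating factors rose in 7 of 14 tested (50% called, against 4.26% of all genes tested): CSF3, IL6, CSF2, IL11, IL32, IL12A and CSF1. The list holds 19 symbols, and the 50% is partly set by the count filter, as described for the IL-1 list. The list median was 1.26, and 6 rose whichever of the day 21 libraries was left out. IL6, which signals through gp130 to STAT3, measured 3.82, 4.10 and 1.79 CPM in control and 124, 145 and 180 CPM in exposed libraries. The groups were far apart, with a log2 fold change of 5.55 ± 0.59 (adjusted p = 1.53e-07), and 9.91% of its exon length is shared with a gene on the other strand. IL11, of the same receptor family, measured 20, 19.4 and 10.4 CPM against 111, 96.5 and 77.2 CPM (log2 fold change 2.52 ± 0.44). CSF3, the granulocyte colony stimulating factor G-CSF, had 0 counts in all 3 control libraries and 51, 26 and 143 in the exposed ones, which was at least 22.5-fold higher against a floor of 3 counts per library. CSF2, the factor GM-CSF, had 2, 1 and 1 counts against 47, 31 and 32, a ratio of 28.0 (95% exact interval 10.6 to 104, counting error only). CSF1, the macrophage factor, had a log2 fold change of 1.18 ± 0.26, from 70.9 to 75.1 CPM to 139.8 to 218 CPM. MIR3142HG, the host gene of the microRNA miR-146a that targets IRAK1 and TRAF6, had 0 counts in control and 249, 162 and 359 in exposed libraries, at least 85.7-fold higher.

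Among 10 tested genes of prostaglandin synthesis and receptors, HPGD alone was called (10%, against 4.26% of all genes tested). HPGD, which breaks prostaglandins down, fell from 67.7, 70.4 and 85.3 CPM to 29.0, 25.2 and 34.6 CPM (log2 fold change -1.33 ± 0.27, adjusted p = 0.0014). PTGS2, the inducible cyclooxygenase COX-2, measured 0.684, 0.664 and 1.63 CPM in control and 3.86, 1.42 and 4.68 CPM in exposed libraries. Exposed replicate 2 lay below control replicate 3, and the gene did not pass the thresholds (log2 fold change 1.71 ± 0.62, adjusted p = 0.116). With the replicate number as a block it did (log2 fold change 1.80, adjusted p = 0.00816).

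Of 11 tested genes of the acute phase, coagulation and epithelial defence, SAA1, SAA2, SERPINA1 and LCN2 rose and DEFB1, FGA, FGB, FGG, F2 and F5 fell (90.9% called, against 4.26% of all genes tested). SAA1, a serum amyloid A protein of the acute phase, measured 0.228, 0.060 and 0.119 CPM in control and 4.996, 3.74 and 9.40 CPM in exposed libraries (log2 fold change 5.41 ± 0.65, adjusted p = 1.78e-06). SAA2, its near copy, may share reads with it. LCN2, which binds bacterial siderophores, measured 0.627 to 0.956 CPM against 6.25 to 10.1 CPM. FGA, FGB and FGG encode the chains of fibrinogen. FGA measured 13.05, 13.2 and 16.1 CPM in control and 0.434, 0.225 and 0.821 CPM in exposed libraries, so that every exposed library was far below control (log2 fold change -4.72 ± 0.52, adjusted p = 2.59e-07). FGB had 160, 172 and 234 counts in control and 3, 1 and 2 in exposed libraries, a control to exposed ratio of 92.7 (95% exact interval 42.3 to 254, counting error only). DEFB1, the epithelial antimicrobial peptide β-defensin 1, measured 16.6, 19.1 and 17.1 CPM against 0.217, 0 and 0.205 CPM (log2 fold change -6.74 ± 0.74, adjusted p = 3.15e-07).

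Of 14 complement genes tested, C1QTNF1 and C3 rose and C5 fell (21.4% called, against 4.26% of all genes tested). With the replicate block CFB also rose and CFD also fell, making 3 that rose and 2 that fell. C3, the convergence point of the complement pathways, measured 385, 366 and 414 CPM in control and 1080.1, 1115 and 1495 CPM in exposed libraries (log2 fold change 1.66 ± 0.25, adjusted p = 3.41e-05). C5, from which the anaphylatoxin C5a is cut, measured 38.3, 39.3 and 50.4 CPM against 2.93, 2.99 and 4.06 CPM. It fell by 3.67 ± 0.42 on the log2 scale (adjusted p = 5.19e-07). C1QTNF1, a secreted relative of C1q, had a log2 fold change of 2.72 ± 0.46.

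Among the transcription factors that drive EMT, SNAI2 and ZEB2 rose of 12 tested (16.7% called, against 4.26% of all genes tested). SNAI2, which encodes SLUG, measured 2.96, 2.59 and 1.59 CPM in control and 22.4, 31.3 and 13.1 CPM in exposed libraries. Replicate 3 was the lowest of both groups, the groups did not overlap, and the log2 fold change was 3.23 ± 0.49 (adjusted p = 3.3e-05). ZEB2 measured 4.96, 4.10 and 5.695 CPM against 20.5, 23.7 and 18.5 CPM (log2 fold change 2.08 ± 0.40, adjusted p = 0.000852), and 11.3% of its exon length is shared with another gene on the same strand. ZEB1 lay at 23.2 to 28.7 CPM in control and 30.2 to 41.3 CPM in exposed libraries (log2 fold change 0.44 ± 0.37, adjusted p = 0.838). SNAI1 lay at 2.59 to 3.08 CPM in control and 1.60 to 2.10 CPM in exposed libraries, with a log2 fold change of -0.61 ± 0.38 (adjusted p = 0.612). Neither passed the thresholds.

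Epithelial genes were lower in 7 of 31 tested: CEACAM6, CLDN2, CDH1, KRT18, KRT8, CGN and DSP fell and CLDN1 rose (25.8% called, against 4.26% of all genes tested), with a list median of -0.30. With the replicate block 9 fell, as many as when libraries of high mitochondrial share were left out, and DESeq2 called 8 lower. CDH1, the gene of E-cadherin, measured 192, 185 and 213 CPM in control and 34.1, 27.5 and 63.1 CPM in exposed libraries. Every exposed library was under the lowest control library, with a log2 fold change of -2.24 ± 0.30 (adjusted p = 7.15e-06). KRT8 and KRT18 encode the paired keratins of simple epithelia. KRT8 measured 2624, 2914 and 3172 CPM against 726, 719 and 904 CPM, and KRT18 1475, 1579.8 and 1690.2 CPM against 399.9, 387 and 492 CPM. Both fell by 1.89 on the log2 scale (SE 0.31 and 0.34, adjusted p = 0.000124 and 0.00034). These genes have many processed pseudogenes that can take their reads: 15 of 30 tested KRT8 pseudogenes and 7 of 25 tested KRT18 pseudogenes fell too, which is 22 of the 44 pseudogenes among the genes that fell. CGN, the tight junction protein cingulin, fell by 1.48 ± 0.23 and DSP, the desmosomal protein desmoplakin, by 1.41 ± 0.31 on the log2 scale. CEACAM6, an adhesion molecule of the epithelial surface, had 82, 75 and 165 counts in control and 1, 0 and 0 in exposed libraries, a ratio of 317 with a wide 95% exact interval from 56.4 upward (counting error only). JUP, the gene of γ-catenin (plakoglobin), measured 60.2, 67.9 and 91.2 CPM in control and 34.3, 28.3 and 74.6 CPM in exposed libraries. Exposed replicate 3 lay within the range of control, and JUP did not pass the thresholds (log2 fold change -0.67 ± 0.55, adjusted p = 0.82). CLDN1, a claudin of tight junctions, measured 35.0, 37.5 and 26.9 CPM against 77.8, 91.6 and 59.5 CPM (log2 fold change 1.20 ± 0.28), a call lost without control replicate 3 (1.07, adjusted p = 0.0535).

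Mesenchymal and matricellular genes were higher in 6 of 22 tested (27.3% called, against 4.26% of all genes tested): TNC, NT5E, SPARC, CD44, CCN1 and CCN2. A positive log2 fold change was seen in 20 of the 22, with a median of 0.61. Without control replicate 3, 4 rose, and the call of SPARC was lost without control replicate 1 (2.12, adjusted p = 0.0665) or exposed replicate 3. TNC, the matrix glycoprotein tenascin C, measured 2.17, 1.69 and 1.55 CPM in control and 35.6, 38.7 and 41.1 CPM in exposed libraries (log2 fold change 4.42 ± 0.51, adjusted p = 5.79e-07). NT5E, the ectonucleotidase CD73 that forms adenosine, measured 17.8, 18.9 and 12.8 CPM against 124, 141 and 99.8 CPM (log2 fold change 2.88 ± 0.39, adjusted p = 5.8e-06). CD44, the hyaluronan receptor, rose by 1.14 ± 0.16 on the log2 scale, from 284 to 352 CPM to 636 to 783 CPM. Several classical mesenchymal markers did not pass the thresholds. VIM (vimentin) measured 724, 711 and 698 CPM in control and 987, 1045 and 1015 CPM in exposed libraries. The VIM groups did not overlap, but the log2 fold change was 0.51 ± 0.24 (adjusted p = 0.31). That SE draws on all 36 libraries. Within day 21 the SD of VIM was 13.0 CPM in control and 29.0 CPM in exposed libraries. CDH2 (N-cadherin) had a log2 fold change of 0.40 ± 0.17 (adjusted p = 0.219) and FN1 (fibronectin) one of 0.50 ± 0.25 (adjusted p = 0.409), each without overlap of the groups. ACTA2 (smooth muscle actin) measured 7.97 to 8.83 CPM in control and 7.55 to 11.7 CPM in exposed libraries, which overlap. Genes on the other strand share 24.6% of the exon length of VIM and 35.9% of that of ACTA2, and the strand setting of the counting is not given in the sources used here.

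**Figure D3:**
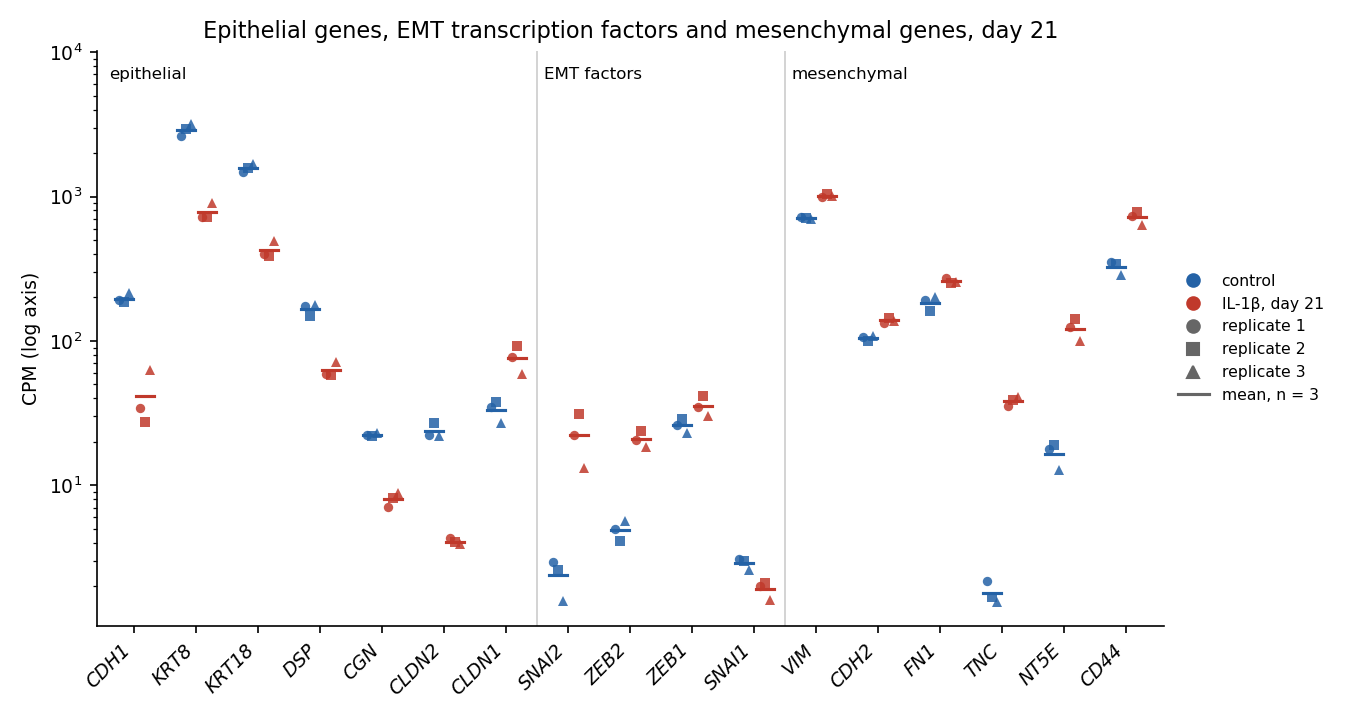
CPM (log axis) of epithelial genes, EMT transcription factors and mesenchymal genes in each day 21 library, drawn as in the plot of chemokine genes. The groups of TNC (1.55 to 2.17 CPM in control, 35.6 to 41.1 CPM in exposed libraries), SNAI2 and CDH1 lie far apart, and those of VIM, CDH2 and FN1 lie close together.

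Of 19 collagen genes, COL13A1, COL17A1, COL4A6, COL4A5 and COL1A1 rose and COL4A3 and COL4A4 fell (36.8%, against 4.26% of all genes tested). Without control replicate 1 or 3, only 3 collagen genes rose. COL4A3 and COL4A4 encode chains that assemble with each other in a basement membrane collagen IV. COL4A3 measured 5.19, 3.98 and 5.89 CPM in control and 0.923, 0.898 and 0.4925 CPM in exposed libraries (log2 fold change -2.73 ± 0.54), and COL4A4 measured 5.67 to 7.41 CPM against 0.543 to 1.65 CPM (-2.52 ± 0.45). COL4A1, a chain of the common form, lay at 407 to 467 CPM and 321 to 381 CPM and did not pass the thresholds (log2 fold change -0.29 ± 0.25).

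Of 16 matrix proteases, inhibitors and genes of plasminogen activation, 7 rose (MMP2, MMP16, PLAU, MMP19, PLAUR and PLAT among them), MMP7 fell (50% called, against 4.26% of all genes tested), 13 had a positive log2 fold change and the median was 0.86. Without control replicate 2, 4 rose, and with the replicate block 8. PLAU, the urokinase that activates plasminogen, measured 110.03, 112 and 98.6 CPM against 267, 228 and 256 CPM (log2 fold change 1.23 ± 0.23, adjusted p = 0.000703), with 31.0% of its exon length shared with a gene on the other strand. Its receptor PLAUR rose by 1.16 ± 0.21 on the log2 scale. MMP7, matrilysin of epithelial cells, measured 2.29 to 2.95 CPM and 0.272 to 1.07 CPM, and the call was lost without exposed replicate 1 (log2 fold change -1.47, adjusted p = 0.0543). MMP2 lay at 0.285 to 0.483 CPM in control and 1.30 to 2.09 CPM in exposed libraries, and its call was lost without any of 4 libraries (adjusted p = 0.109 without control replicate 1).

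Integrin subunits ITGB3, ITGA5, ITGB6, ITGA2 and ITGA1 rose of 17 tested (29.4% called, against 4.26% of all genes tested). ITGA5, which with ITGB1 forms the fibronectin receptor, measured 51.4, 49.5 and 45.6 CPM in control and 149, 136 and 126 CPM in exposed libraries (log2 fold change 1.49 ± 0.36, adjusted p = 0.00703). ITGA2, a collagen receptor subunit, measured 38.2, 34.8 and 27.2 CPM against 89.8, 84.9 and 66.1 CPM (1.26 ± 0.23). ITGB3, the β3 subunit, had a log2 fold change of 2.16 ± 0.27 (adjusted p = 1.64e-06), and 33.2% of its exon length is shared with another gene on the same strand. Without control replicate 3 or exposed replicate 1, 3 integrin genes rose, and with the replicate block ITGB4 also fell.

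Of 6 inflammatory adhesion genes tested, ICAM1 and L1CAM rose (33.3% called, against 4.26% of all genes tested). ICAM1, the ligand of leukocyte integrins, measured 0.513, 0.121 and 0.199 CPM in control and 0.9775, 1.42 and 2.13 CPM in exposed libraries (log2 fold change 2.45 ± 0.57, adjusted p = 0.00515). The call was lost without control replicate 3 (2.23, adjusted p = 0.058) and without exposed replicate 3 (2.09), and 25.4% of its exon length lies opposite another gene. L1CAM, a neural adhesion molecule, measured 5.87, 5.37 and 5.18 CPM against 13.5, 13.8 and 22.98 CPM (log2 fold change 1.62 ± 0.36). Among 10 checkpoint ligands, PDCD1LG2 (PD-L2) and CD274 (PD-L1) rose (20% called, against 4.26% of all genes tested). CD274 measured 0.627, 1.15 and 0.996 CPM against 4.24, 3.89 and 2.46 CPM (1.92 ± 0.48, adjusted p = 0.0096), but its call was lost without control replicate 1 (1.71, adjusted p = 0.0717) or exposed replicate 1. PDCD1LG2 lay at 0.080 to 0.228 CPM in control and 1.03 to 1.40 CPM in exposed libraries (2.94 ± 0.59).

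All 17 tested genes of MHC class I antigen presentation had a positive log2 fold change, from 0.097 to 0.81, with a median of 0.40. By edgeR 0 passed both thresholds, against 4.26% of all genes tested, and DESeq2 called 0. By edgeR 7 had an unadjusted p under 0.05, against 13.7% of all genes tested. HLA-B measured 15.3, 14.5 and 15.4 CPM in control and 23.03, 18.9 and 24.9 CPM in exposed libraries, without overlap (log2 fold change 0.56 ± 0.24, adjusted p = 0.241). HLA genes may share reads with each other, and other genes share 30.7% of the exon length of HLA-B on the same strand and 14.5% on the other. Of 34 interferon-stimulated genes, GBP1, GBP2, GBP3, IFI16 and OASL rose and IFITM2, IFITM3 and ISG20 fell (23.5% called, against 4.26% of all genes tested), with a median of 0.18. GBP1, a guanylate-binding GTPase of cell-intrinsic defence, measured 1.31, 1.03 and 0.637 CPM against 7.39, 8.46 and 8.17 CPM (3.02 ± 0.51, adjusted p = 0.000152). The calls of the 3 genes that fell were all lost without control replicate 3 or exposed replicate 1, where 0 were called (adjusted p = 0.0973, 0.168 and 0.154 without exposed replicate 1), and DESeq2 on all libraries called all 3. IFI16, a DNA sensor, lost its call without any 1 control library (2.16, adjusted p = 0.0866 without replicate 3).

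Of 29 TNF receptors, death ligands and apoptosis regulators, BCL2A1, TNFRSF9 and BIRC3 rose (10.3% called, against 4.26% of all genes tested). BCL2A1, an antiapoptotic member of the BCL2 family, measured 0.912, 1.15 and 0.996 CPM in control and 13.9, 17.2 and 12.85 CPM in exposed libraries (log2 fold change 3.84 ± 0.49, adjusted p = 2.93e-06). BIRC3, an inhibitor of apoptosis protein of the TNF receptor complex, measured 137, 131 and 99.7 CPM against 309.9, 315 and 331 CPM (1.38 ± 0.34), a call lost without control replicate 3 (1.25, adjusted p = 0.0791). BCL2L1, the gene of BCL-XL, measured 261 to 295 CPM and 251 to 279 CPM, which overlap. Of 8 metallothionein and zinc transport genes, 2 rose (25% called, against 4.26% of all genes tested). MT2A rose from 128, 154 and 142 CPM to 404, 646 and 461 CPM (1.83 ± 0.33, adjusted p = 0.000327). MT1X rose too, a call lost without control replicate 1 or exposed replicate 2 (0.92 without the latter, adjusted p = 0.175), and metallothionein genes may share reads.

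Targets of NRF2, the regulator of antioxidant genes that is active in A549, were lower in 5 of 23 tested (21.7% called, against 4.26% of all genes tested): GPX2, AKR1C2, AKR1B10, AKR1C3 and AKR1C1. AKR1B10, an aldo-keto reductase of retinal and other carbonyls, measured 1499, 1553 and 1473 CPM in control and 442, 397 and 391 CPM in exposed libraries. The groups were far apart, with a log2 fold change of -1.88 ± 0.17 (adjusted p = 1.44e-08). GPX2, a selenium-dependent glutathione peroxidase, measured 8.66, 14.5 and 18.0 CPM against 0.217, 0.225 and 0.903 CPM (-4.80 ± 0.58). AKR1C1, AKR1C2 and AKR1C3 are near copies and may share reads, and AKR1C2 measured 880.3, 1037 and 1047 CPM against 212, 165 and 362 CPM. NQO1, a classical NRF2 target, measured 1179.8 to 1247 CPM in control and 818 to 1036 CPM in exposed libraries and did not pass the thresholds (-0.34 ± 0.22, adjusted p = 0.636). ALDH1A1, a retinal dehydrogenase and the gene with the most counts among those that fell, measured 4423, 4679.7 and 4602 CPM against 1871, 1756 and 2085 CPM (-1.26 ± 0.17, adjusted p = 5.99e-06).

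Proliferation genes gave 0 calls by edgeR among 39 tested, against 4.26% of all genes tested, 0 calls by DESeq2 and a median of -0.13. At an unadjusted p under 0.05 by edgeR, 1 was higher and 5 lower, against 13.7% of all genes tested in either direction. In 16 of the 39 all exposed libraries lay below control and in 2 all lay above, against 15.2% and 13.8% of all genes tested, and 1 fell without the libraries of high mitochondrial share. CCNB1, the mitotic cyclin B1, measured 285, 280.2 and 277 CPM in control and 275, 232 and 236 CPM in exposed libraries, without overlap (log2 fold change -0.18 ± 0.19, adjusted p = 0.938). MKI67, the proliferation antigen Ki-67, measured 1164, 1014 and 931 CPM in control and 1066, 1432 and 741 CPM in exposed libraries, which overlap. Among 21 p53 targets and cell cycle inhibitors, GADD45A rose and CDKN1C fell (9.52% called, against 4.26% of all genes tested). CDKN1C, the inhibitor p57 of cyclin-dependent kinases, measured 1.65, 1.75 and 2.31 CPM against 0.109, 0.150 and 0.164 CPM (log2 fold change -3.68 ± 0.52, adjusted p = 1.15e-05). CDKN1A, the inhibitor p21, measured 51.2, 51.8 and 57.7 CPM against 94.5, 83.5 and 117 CPM, without overlap, but the log2 fold change of 0.88 ± 0.49 did not pass the thresholds (adjusted p = 0.512).

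Growth factor genes are grouped by ligands and receptors. Of 12 EGF family genes, the ligands HBEGF and EREG rose and the receptor ERBB3 fell (25% called, against 4.26% of all genes tested). EREG (epiregulin) measured 160.5, 151 and 108 CPM in control and 537, 523 and 284 CPM in exposed libraries (log2 fold change 1.68 ± 0.38, adjusted p = 0.00438), and HBEGF measured 3.86 to 5.36 CPM against 14.2 to 22.8 CPM (1.99 ± 0.27). The call of ERBB3 was lost whichever library was left out (adjusted p up to 0.155, -1.14, without exposed replicate 2). EGFR lay at 369 to 454 CPM and 456 to 506 CPM (0.29 ± 0.16, adjusted p = 0.514). Of 37 genes of the TGF-β, activin and BMP pathway, TGFBI, FSTL1, LTBP1, SMURF2 and LTBP2 rose and INHBB, SMAD6, BMP4 and BMPR1B fell (24.3% called, against 4.26% of all genes tested). TGFBI, a matrix protein named for its induction by TGF-β and the gene with the most counts among those that rose, measured 1032, 1004 and 1066 CPM against 2769.8, 2614 and 2905 CPM (1.42 ± 0.13, adjusted p = 8.35e-09). LTBP1 and LTBP2 are latent TGF-β binding protein family members of the matrix, with log2 fold changes of 1.13 ± 0.24 and 1.04 ± 0.25. INHBB, the β B subunit of activins and inhibins, measured 116, 117 and 148 CPM in control and 3.80, 3.22 and 4.97 CPM in exposed libraries. It fell by 4.97 ± 0.23 on the log2 scale (adjusted p = 8.02e-15). SMAD6, an intracellular inhibitor of BMP signals, fell by 1.72 ± 0.25 and the ligand BMP4 by 1.67 ± 0.33. The ligand TGFB2 did not pass the thresholds (0.38 ± 0.35, adjusted p = 0.886).

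Of 11 class 3 semaphorins and receptors, which guide axons and vessels, NRP2 rose and PLXND1 and SEMA3A fell (27.3% called, against 4.26% of all genes tested). NRP2, a co-receptor of semaphorins and VEGF-C, measured 367, 336 and 317 CPM against 773, 798 and 809 CPM (log2 fold change 1.22 ± 0.19, adjusted p = 3.58e-05). PLXND1, a plexin receptor, measured 38.2, 40.5 and 50.5 CPM against 6.84, 6.44 and 13.0 CPM (-2.29 ± 0.43). SEMA3A fell by 1.65 ± 0.40, a call lost without exposed replicate 1 (-1.51, adjusted p = 0.0601).

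Lineage factors were lower in 6 of 21 tested (HNF4A, ONECUT1, RUNX3, SOX2 and FOXA1 among them) and RUNX2 rose (33.3% called, against 4.26% of all genes tested), with a median of -0.50. Without control replicate 3 or exposed replicate 1, 3 fell, with DESeq2 4 and with the replicate block 5. The call of ONECUT1 was lost with DESeq2 and in 5 of the 6 fits without 1 library (adjusted p up to 0.284, -0.997, without exposed replicate 3). HNF4A, a nuclear receptor that maintains hepatic and gut epithelial genes, measured 9.97, 12.1 and 12.1 CPM in control and 0.706, 0.898 and 1.19 CPM in exposed libraries. All exposed libraries were far below control (log2 fold change -3.58 ± 0.47, adjusted p = 4.78e-06). FOXA1, a pioneer factor of endodermal epithelia, lay at the threshold of fold change (log2 fold change -1.0 ± 0.25, adjusted p = 0.0099) and under it with the replicate block (-0.99, adjusted p = 0.000801). FOXA2 did not pass the thresholds (-0.77 ± 0.25, adjusted p = 0.069). RUNX2, a skeletal lineage factor, measured 14.2, 11.2 and 11.5 CPM against 32.3, 36.1 and 26.6 CPM (1.36 ± 0.20). Of 8 mucin genes MUC5B and MUC5AC fell (25% called, against 4.26% of all genes tested). MUC5B, a secreted gel-forming mucin of airways, measured 119, 72.5 and 109 CPM against 7.98, 4.04 and 17.6 CPM (-3.32 ± 0.63, adjusted p = 0.000662). The call of MUC5AC was lost without control replicate 1 or exposed replicate 1 or 2 (adjusted p up to 0.087, -1.84, without exposed replicate 2).

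Of 25 genes of sterol and fatty acid synthesis, 24 had a negative log2 fold change, with a median of -0.59. Among them 5 fell (20% called, against 4.26% of all genes tested), including FADS2, STARD4, SCD and HMGCS1. Without exposed replicate 2, the day 21 library with the highest mitochondrial share, 1 of the 25 fell, and without exposed replicate 1, 2 fell. With all 11 libraries of high mitochondrial share in the series left out, that one among them, 4 fell. SCD, the stearoyl-CoA desaturase, measured 738, 680 and 733 CPM in control and 225, 213 and 374 CPM in exposed libraries (-1.41 ± 0.33, adjusted p = 0.00574; -1.24 and 0.0589 without exposed replicate 2). Of 25 genes of glucose and pyruvate metabolism, HK1 rose and SLC2A3 and PDK4 fell (12% called, against 4.26% of all genes tested). SLC2A3, the glucose transporter GLUT3, measured 219.5, 214 and 264 CPM against 24.8, 22.5 and 33.2 CPM (-3.11 ± 0.29, adjusted p = 2.12e-08), and it may share reads with its near copy SLC2A14. SLC2A1, the transporter GLUT1, measured 176 to 199 CPM and 168 to 186.5 CPM, which overlap. HK1, a hexokinase, measured 64.4, 57.9 and 53.8 CPM against 151, 179 and 160 CPM (1.48 ± 0.21). PDK4, which inhibits pyruvate dehydrogenase, measured 19.6 to 25.5 CPM against 2.17 to 4.43 CPM (-2.83 ± 0.57).

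Of 39 chromatin-modifying enzymes, HDAC9 alone rose (2.56% called, under the 4.26% of all genes tested) and the median was -0.036. HDAC9, a class IIa histone deacetylase, measured 2.96, 1.93 and 2.95 CPM in control and 12.2, 13.7 and 12.5 CPM in exposed libraries (log2 fold change 2.28 ± 0.39, adjusted p = 0.000158). DNMT1, the maintenance DNA methyltransferase, measured 176 to 201 CPM and 173 to 237 CPM, and EZH2, the H3K27 methyltransferase, 69.5 to 77.1 CPM and 57.25 to 79.6 CPM, and in both the groups overlap. Among 13 noncoding and microRNA host genes, MEG3 rose beside MIR3142HG and H19 fell (23.1% called, against 4.26% of all genes tested). MEG3 and H19 are imprinted noncoding RNAs. H19 measured 1.88, 2.11 and 1.35 CPM against 0.054, 0 and 0.205 CPM (-3.997 ± 0.53, adjusted p = 4.88e-06), and MEG3 1.15 to 1.54 CPM against 3.37 to 4.64 CPM (1.56 ± 0.31).

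**Figure D4:**
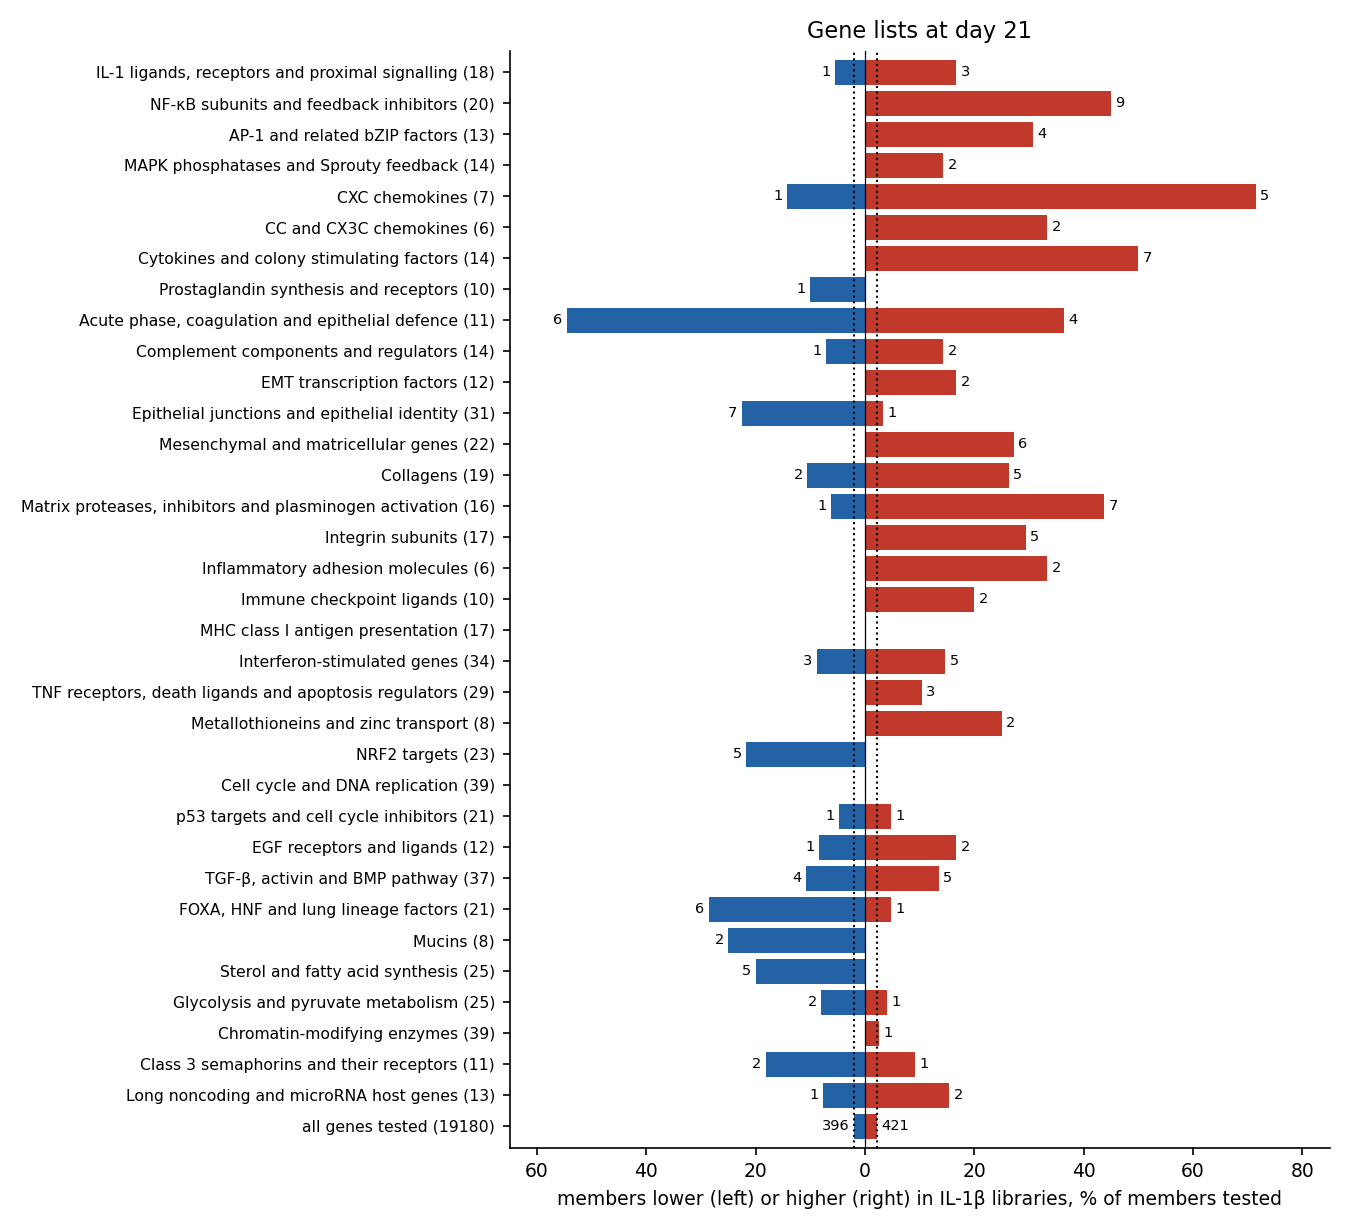
Share of tested members that rose (red, right) or fell (blue, left) at day 21 in each of 34 gene lists, in percent; the number beside a bar is the count, the number in brackets the members tested, and the dotted lines mark 2.19% and 2.06%, the shares over all genes. The bars of CXC chemokines (5 of 7 rose) and of the acute phase list (6 of 11 fell, 4 rose) are the longest, and the lists of MHC class I and cell cycle genes have no bar.

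Several of the largest changes lay outside the lists. PTPRD, a receptor tyrosine phosphatase, measured 0.171, 0.422 and 0.279 CPM in control and 11.8, 10.1 and 10.01 CPM in exposed libraries (log2 fold change 5.17 ± 0.42, adjusted p = 1.19e-09). ABAT, the mitochondrial transaminase that breaks down GABA, measured 1.31, 1.03 and 1.19 CPM against 30.5, 32.9 and 27.3 CPM (4.67 ± 0.31, adjusted p = 3.61e-11). C15orf48, which encodes a subunit paralogue of cytochrome c oxidase known from inflamed cells, measured 2.62, 2.715 and 3.27 CPM against 68.4, 66.0 and 146 CPM (5.02 ± 0.46), and 21.6% of its exon length is shared with a gene on the same strand. Among the genes that fell, CPLX2, complexin 2 of synaptic vesicle fusion, measured 819, 854 and 858 CPM in control and 40.6, 30.8 and 54.8 CPM in exposed libraries. The groups were far apart, with a log2 fold change of -4.32 ± 0.44 (adjusted p = 7.89e-08). KRT4, a keratin of stratified mucosa, measured 26.0, 24.5 and 35.4 CPM against 0.272, 0.075 and 1.60 CPM (-5.28 ± 0.60). RTN4RL2, a Nogo receptor homologue, fell by 4.17 ± 0.53 and VAV3, an exchange factor of small GTPases, by 3.98 ± 0.31 on the log2 scale. For RTN4RL2, 28.4% of the exon length lies opposite another gene.

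Days 6 and 15 of exposure, each with 3 exposed and 3 control libraries of their own, show how far the day 21 state was already present. At day 6, 531 genes (2.77%) passed both thresholds and at day 15, 814 (4.24%). Of the 421 genes that rose at day 21, 234 (55.6%) had risen at day 6, which is 80.4% of the 291 that rose then (1.52% of genes tested), and 287 (68.2%) at day 15, which is 77.2% of 372 (1.94%). Of the 396 that fell, 181 (45.7%) had fallen at day 6, which is 75.4% of 240 (1.25%), and 293 (74.0%) at day 15, which is 66.3% of 442 (2.3%). A fitted change of the same sign was seen at day 6 for 415 of the 421 genes that rose. Over the genes that rose, the median log2 fold changes of the 3 days in order were 1.38, 1.51 and 1.72, and over those that fell they were -1.15, -1.61 and -1.70. Since these genes were chosen by their day 21 values, the day 21 medians are not comparable with the others as a test. There were 108 genes that rose and 82 that fell past both thresholds at day 21 and at neither earlier day, but a threshold passed on 1 day and missed on another is not a difference.

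The difference between the responses was therefore tested itself, in the same fit. Between day 21 and day 6, 2 of 19180 genes (0.0104%) differed past both thresholds, 1 with a higher and 1 with a lower response at day 21 (0.00521% each). The response of INHBB was -4.97 at day 21 and -3.15 at day 6, a difference of -1.82 ± 0.28 (adjusted p = 0.00373). The response of ABAT was 4.67 at day 21 and 1.82 at day 6, a difference of 2.85 ± 0.41 (adjusted p = 0.00312). At an unadjusted p under 0.05, 429 genes (2.24%) differed between these days. Between day 21 and day 15, 0 genes differed by edgeR or by DESeq2, and 213 (1.11%) had an unadjusted p under 0.05. For the genes of the EMT and lineage lists, the values at days 6, 15 and 21 stood as follows, with differences that did not pass the test. CDH1 had log2 fold changes of -1.10, -1.73 and -2.24, SNAI2 of 1.64, 2.83 and 3.23, and HNF4A of -2.18, -3.75 and -3.58. For CCL20 they were 7.20, 5.24 and 5.57, for CXCL5 3.56, 3.00 and 2.46, and for TNFAIP3 4.05, 3.15 and 3.21. KRT8 fell by 2.09, 2.39 and 1.89 on these days.

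**Figure D5:**
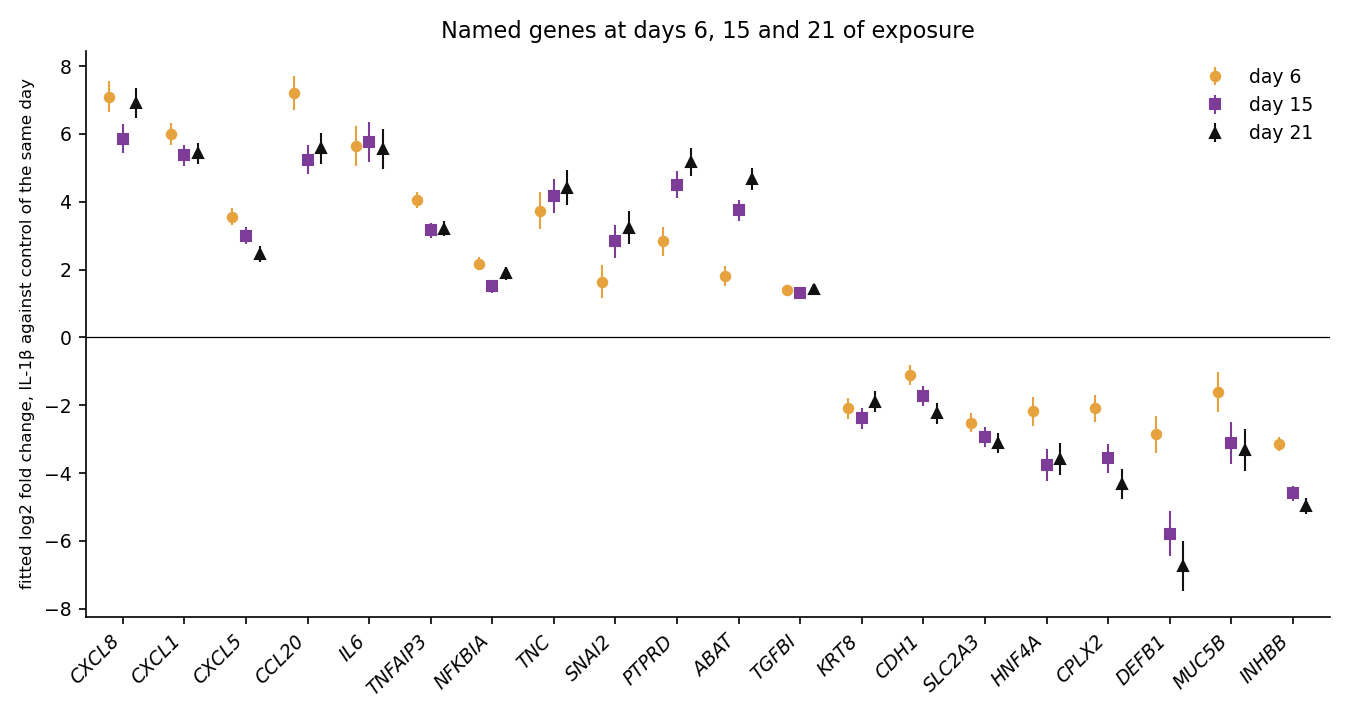
Fitted log2 fold change of IL-1β against control of the same day, with bars of 1 SE, for 20 genes at days 6 (circles), 15 (squares) and 21 (triangles). Chemokine genes such as CXCL8 (7.10, 5.85 and 6.91) stand high from day 6 on, and the differences between days passed the test only for ABAT (1.82 at day 6, 4.67 at day 21) and INHBB (-3.15 and -4.97).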

How the data were processed

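A549 libraries were single-end HiSeq reads. Per the labels and the study's methods, the authors used bcl2fastq 2.17, aligned reads to GRCh37 with TopHat2 2.0.14 and Bowtie2 2.2.5 and counted them with HTSeq 0.6.1. They deposited raw counts per Ensembl gene, not normalized. The strand setting and annotation release are not given in the sources used here. Exon overlap with other genes is stated for some named genes only. It also touches others, such as NQO1 (19.4%, other strand), MT1X (18.6%, same strand) and KRT18 (17.1%, other strand). Over the day 21 libraries reads outside any gene made up 8.66% to 14.4% and ambiguous reads 3.76% to 4.16%.

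Computed here: symbols from GENCODE 44 lifted to GRCh37 (55665 of 63677 genes), filterByExpr, TMM and edgeR 4.0.16's quasi-likelihood F-test on all 36 libraries and 12 groups (24 residual degrees of freedom), with Benjamini-Hochberg adjustment over 19180 genes, in R 4.3.3. SE is the log2 fold change over the root of F. The fit was also run on simulated counts, which held neither a pairing of replicates nor libraries of high mitochondrial share. The outcome of that run is not reported here. DESeq2 1.42.0, other filters, thresholds and left-out libraries were alternatives.

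The lists, of 757 symbols of which 621 were tested and 7 unmatched, and the comparison were chosen with earlier results of these data known. Genes named were the 10 of at least 10 CPM with the largest change in each direction, up to 3 per list and direction, list anchors, the 5 with the most counts in each direction and the genes of the difference tests; other genes were chosen after their values were seen. Some genes that the rule names are not reported here. At the floor means 3 or fewer counts in every library of a group.

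Replicate numbers come from the labels. Deviations of control and exposed libraries with the same number correlated at 0.229, 0.197 and 0.259, so the numbers pair the libraries. The fit behind the p-values, SE and counts leaves this pairing out unless the replicate block is named. With the block, 889 genes passed both thresholds at day 21, and it is given where it changes a call of a list or named gene.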

Additional observations from a re-analysis of the deposited data

Results flagged for a closer look

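The responses of INHBB and ABAT differed between days 21 and 6 of exposure by a test of the difference itself. The log2 fold change of INHBB was -4.97 at day 21 and -3.15 at day 6, a difference of -1.82. That of ABAT was 4.67 and 1.82, a difference of 2.85. Both genes changed in the same direction in the 3 same-numbered pairs of day 21, as did all 817 genes past both thresholds then. That direction follows largely from the choice of genes and does not bear on the difference between days.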

How the results depend on the processing

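Of 817 genes past both thresholds at day 21, the count was 448 with at least 10 counts required in all libraries, 1228 at an adjusted p under 0.05 alone and 481 in a test against a fold change of 1.5. Leaving out a replicate number or a single library gave 299 to 755, the lowest without replicate 1 of all groups. With the replicate block it was 889, with DESeq2 864 and with high mitochondrial share as a covariate 1004. With only the 6 day 21 libraries fitted it was 967, of which 469 were higher and 498 lower. With these libraries and the replicate block it was 1018. The 2 genes that differed between days 21 and 6 became 1 with at least 10 counts in all libraries, 1 without libraries of high mitochondrial share, 1 in the test against 1.5, 6 with only the groups compared, 9 with the replicate block and only these groups, 10 with DESeq2 and 0 to 10 without a replicate. Between days 21 and 15 the count was 0 under all alternatives.

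All 118 named genes past both thresholds kept their direction under every alternative, and 65 kept their call. Leaving out replicate 1 lost 52 of these calls, and leaving out single libraries of day 21, chosen after seeing the data, lost 26 in at least 1 of these 6 fits. Besides CFB, CFD and ITGB4, whose calls with the replicate block stand above, the block in the joint fit changed the calls of FOXA1 and PTGS2 among the named genes. Near 0, signs turned. The log2 fold change of MKI67, 0.06, was -0.18 without libraries of high mitochondrial share, -0.26 with that share as a covariate, and between -0.21 (without replicate 2) and 0.27 with a replicate or library left out, among them -0.01 without control replicate 3 and -0.18 without exposed replicate 2. That of SLC2A1, -0.07, was 0.23 with the covariate and -0.13 to 0.000094 with a replicate left out, and that of BCL2L1, -0.08, was 0.13 with the covariate. CDKN1A passed both thresholds with the covariate. The causes were not tested. Depth limits the genes under 1 CPM, which have few counts.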
